A study of Mus musculus with 6 samples.

Results

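7 genes that mark early developmental stages were followed in fetal mouse hearts: the RNA-binding protein genes Igf2bp1, Igf2bp2 and Igf2bp3, the microRNA regulators Lin28b and Trim71, and the nuclear factors Hmga2 and Mycn. They were taken by gene symbol from a total of 35411 genes, and all 7 had reads in the data. Igf2bp2 and Igf2bp3 were the members higher in hearts of offspring exposed to titanium dioxide nanoparticles (nano-TiO2) than in sham hearts, by 0.82 ± 0.22 and 0.87 ± 0.17 (SE) on the log2 scale with 3 libraries per group. Igf2bp1, Lin28b, Hmga2 and Mycn did not pass the test, and Trim71 had too few reads to be tested. When each library was adjusted for transcript length and GC content, no member passed.

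The study asked how inhalation of nano-TiO2 during pregnancy bears on the RNA modification N6-methyladenosine (m6A) in the offspring. All mice were wild-type FVB/NJ, an inbred strain, and 14 dams aged 10 weeks entered the study. Exposure ran on 6 non-consecutive days from gestational day 5, and hearts were collected on gestational day 15. The nano-TiO2 dams breathed a target concentration of 12 mg/m3 for 360 minutes per day within 8 days in a whole-body chamber, and the other group was labelled sham exposure. Each of the 3 libraries per group came from pooled male and female hearts; how many litters a pool held is not stated, and the p-values therefore cover the spread among pools alone. The 6 libraries are the inputs of an m6A immunoprecipitation; the RNA was fragmented and sequenced without an antibody step, which gives transcript abundance. In such bulk RNA, fewer cells of a type and less RNA per cell cannot be told apart.

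The members are linked through let-7, a microRNA family that accumulates as tissues mature. LIN28B binds let-7 precursors and blocks their processing, and let-7 in turn represses the messengers of Lin28b, Trim71, Hmga2 and the Igf2bp genes through sites in their 3′ untranslated regions (UTRs). The IGF2BP proteins bind messengers such as Igf2, Actb and Myc, are readers of m6A, and are made mainly before birth. HMGA2 bends DNA in proliferating embryonic cells, MYCN is a MYC-family transcription factor that the embryonic heart needs for growth of its ventricular wall, and TRIM71 is an RNA-binding ubiquitin ligase of early embryos.

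The let-7 seed and its matches in the members are shown first because they are the sequence feature that ties these genes together. RefSeq (GRCm38.p6) holds 11 mature mouse microRNAs with the seed GAGGUAG at bases 2 to 8, and the 3 shown here carry it in capitals, 5′ to 3′.
mmu-let-7a-5p: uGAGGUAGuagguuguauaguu
mmu-let-7d-5p: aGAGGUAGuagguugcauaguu
mmu-let-7g-5p: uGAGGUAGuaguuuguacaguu

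The DNA letters complementary to that seed, CTACCTC, were searched on the sense strand of the 3′ UTR of each member's main coding transcript (GENCODE M21). The matches are in capitals, with up to 15 bases before and 1 base after them, and 1 match per member is shown.
Igf2bp1: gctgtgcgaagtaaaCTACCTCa
Igf2bp2: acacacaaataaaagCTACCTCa
Igf2bp3: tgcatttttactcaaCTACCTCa
Lin28b: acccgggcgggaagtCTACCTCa
Hmga2: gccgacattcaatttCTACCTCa
Trim71: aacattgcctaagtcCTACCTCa

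In GRCm38 coordinates, and all on the minus strand, these lie at chr11:95961778-95961800 (Igf2bp1), chr16:22059473-22059495 (Igf2bp2), chr6:49086787-49086809 (Igf2bp3), chr10:45381022-45381044 (Lin28b), chr10:120364224-120364246 (Hmga2) and chr9:114512472-114512494 (Trim71). Igf2bp1, Lin28b, Hmga2 and Trim71 each had 4 matches, Igf2bp2 and Igf2bp3 had 1 each, and the 913-base 3′ UTR of Mycn had 0. All 4 matches in Trim71 and 3 of the 4 in Igf2bp1 were followed by an A, against 1 of 4 in both Lin28b and Hmga2. At least 1 match was present in 1897 of 20659 3′ UTRs of at least 50 bases (9.18%). Among UTRs of a length like the member's own, the share was 26.3% for Igf2bp1, 11.6% for Igf2bp2, 13.1% for Igf2bp3, 20.3% for Lin28b, 16.1% for Hmga2 and 23.3% for Trim71. Mature microRNAs were not measured in these libraries, and a match is a description of the letters only.

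Salmon assigned 12881945 to 22720009 reads per library. Haemoglobin genes took 10.49 to 23.28% of the reads in sham and 5.64 to 10.08% in nano-TiO2 libraries. All 6 cardiomyocyte markers were present, and their summed level was 34170 to 38940 CPM (counts scaled to library size) in sham and 25650 to 32820 CPM in nano-TiO2. Hepatocyte markers summed to 1083 CPM in sham 2 and to 8.44 to 85.5 CPM in the other libraries, and lung epithelial markers to 1496 CPM in nano-TiO2 3 and to 0.304 to 288 CPM in the others; at least 1 gene of each of these 2 lists was detected in every library. Their part in the results was not tested. Without those 2 libraries the log2 differences were 1.07 for Igf2bp2, 0.92 for Igf2bp3, 0.65 for Igf2bp1, 1.23 for Hmga2, 0.61 for Lin28b, 0.10 for Mycn and 1.25 for Trim71, and none passed in edgeR (adjusted p from 0.134 to 0.889; 2 members had p under 0.05 before adjustment). In that fit 0 of 14019 genes were called higher and 0 lower. Of 13928 genes tested across all libraries, 2153 were called higher (15.5%) and 1780 lower (12.8%) in nano-TiO2 by edgeR's quasi-likelihood test at an adjusted p under 0.05. The groups did not overlap for 45.7% of these genes, and did so with nano-TiO2 higher for 23.3%.

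Against this background 2 of the 6 tested members were called higher, Igf2bp2 and Igf2bp3, which were also the members whose groups did not overlap in CPM. None was called lower by edgeR, DESeq2 or limma-voom, and edgeR's p before adjustment was under 0.05 for 0 members in that direction. With 6 genes, this share is not read as particular to the members beside 15.5% of all genes.

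**Figure D1:**
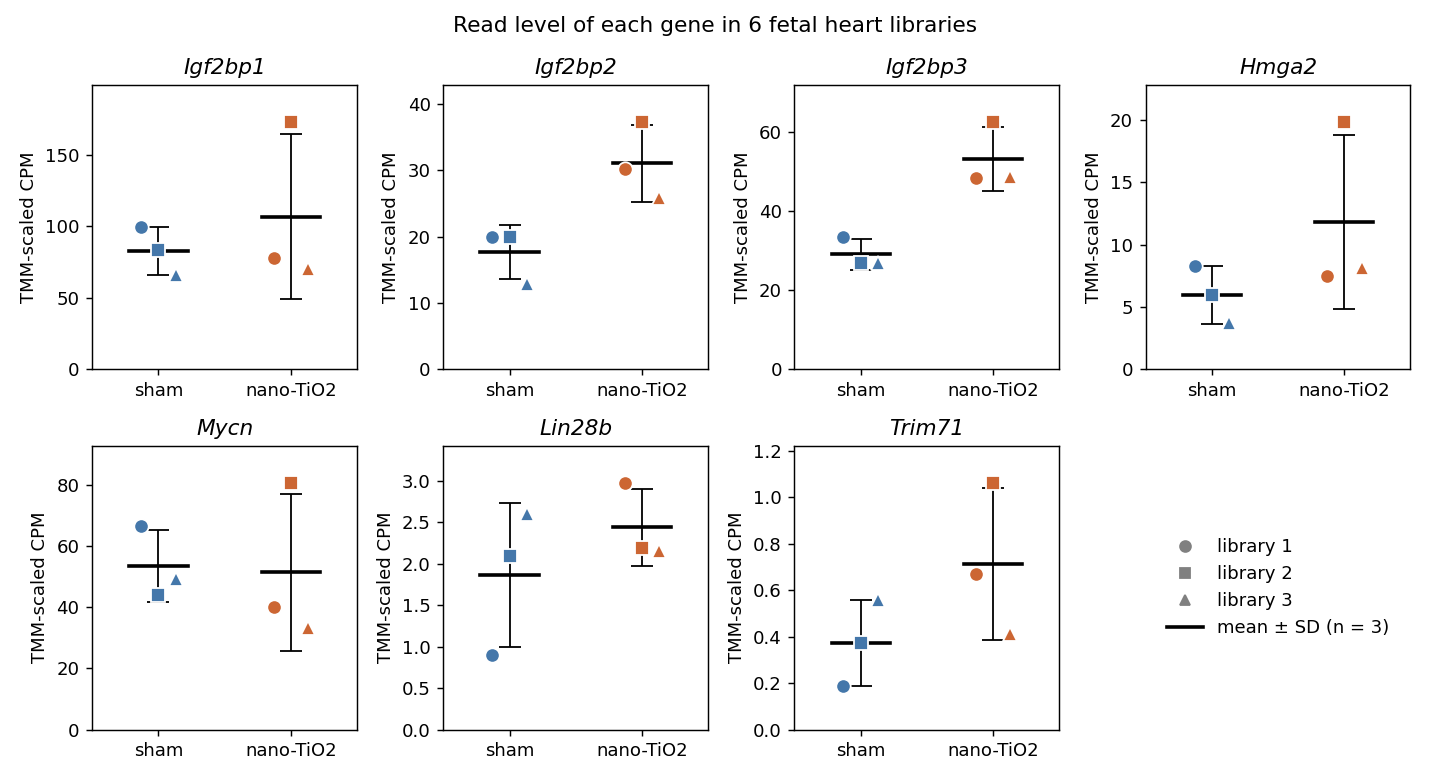
Level of each member in TMM-scaled CPM (y axis, linear, from 0, own scale per gene) for the 3 sham and 3 nano-TiO2 libraries; points are libraries, and the bar and whiskers are mean and SD. Groups are apart for Igf2bp2 (12.9 to 20.0 against 25.8 to 37.3) and Igf2bp3 (26.8 to 33.4 against 48.4 to 62.6) and overlap for the other members.

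Igf2bp3, the member with the smallest p, encodes an IGF2BP protein that is nearly silent in most adult tissues. Its level was 33.4, 26.8 and 26.8 CPM in sham 1 to 3 and 48.4, 62.6 and 48.7 CPM in nano-TiO2 1 to 3. Every nano-TiO2 library lay above every sham library, and nano-TiO2 2 was the highest. The means were 29.0 ± 3.84 and 53.2 ± 8.13 CPM (SD, n = 3 each), and the log2 difference of 0.87 ± 0.17 (SE) passed edgeR's test at an adjusted p of 0.0105. The call was kept when any 1 library was left out, with adjusted p up to 0.0416. It was lost after adjustment for length and GC (0.24, adjusted p = 0.462) and when sham 2 and nano-TiO2 3 were left out together (0.92, adjusted p = 0.134). In the latter fit 0 genes were called in either direction.

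Igf2bp2, the family member that stays on in several adult tissues, was read at 19.99, 19.98 and 12.9 CPM in sham 1 to 3. In nano-TiO2 1 to 3 it was read at 30.2, 37.3 and 25.8 CPM. Sham 3 was the lowest and nano-TiO2 2 the highest library, and the groups did not overlap. The means of 17.6 ± 4.10 and 31.1 ± 5.81 CPM (SD, n = 3 each) differed by 0.82 ± 0.22 (SE) on the log2 scale, with an adjusted p of 0.0286 in edgeR. This call was less robust than that of Igf2bp3 to the choice of libraries: it was lost without sham 2 (adjusted p = 0.0574), nano-TiO2 1 (0.0725), nano-TiO2 2 (0.0614) or nano-TiO2 3 (0.0508), with differences of 0.67 to 0.96, and without sham 2 and nano-TiO2 3 together (1.07, adjusted p = 0.136). In that last fit 0 genes were called in either direction. After adjustment for length and GC the difference for Igf2bp2 was 0.52 (adjusted p = 0.148).

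Igf2bp1, which encodes the protein that binds the localisation element of Actb messenger, had the highest CPM of the members. It was read at 99.5, 83.4 and 65.6 CPM in sham 1 to 3 and at 77.6, 173 and 70.0 CPM in nano-TiO2 1 to 3. The value of 173 in nano-TiO2 2 stood above all others, and the other nano-TiO2 libraries lay inside the sham range. The log2 difference of 0.37 ± 0.34 (SE) did not pass (adjusted p = 0.447 in edgeR). Without nano-TiO2 2 it was -0.17 (adjusted p = 0.516), and after adjustment for length and GC it was -0.30 (adjusted p = 0.664). Both together, a combination chosen after seeing the data, gave -0.79 with an adjusted p of 0.0217, the 1 fit in which a member was called lower.

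Hmga2 was read at 8.26, 5.91 and 3.65 CPM in sham 1 to 3 and at 7.45, 19.9 and 8.11 CPM in nano-TiO2 1 to 3. Nano-TiO2 2 was again far above the rest, and the other libraries of both groups overlapped. The log2 difference of 0.98 ± 0.43 (SE) was the largest among the tested members, but its error was also large and it did not pass (adjusted p = 0.121 in edgeR). Without nano-TiO2 2 the difference fell to 0.39 (adjusted p = 0.424).

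Mycn was read at 66.5, 44.1 and 49.3 CPM in sham 1 to 3 and at 40.0, 80.6 and 33.3 CPM in nano-TiO2 1 to 3. The highest value was in nano-TiO2 2 and the lowest 2 values were in the other nano-TiO2 libraries, so the groups overlapped. The means of 53.3 ± 11.8 and 51.3 ± 25.6 CPM (SD, n = 3 each) differed by -0.06 ± 0.32 (SE) on the log2 scale (adjusted p = 0.906 in edgeR). The difference was -0.55 without nano-TiO2 2 (adjusted p = 0.0828) and 0.13 after adjustment for length and GC (adjusted p = 0.852).

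Lin28b, the let-7 antagonist, was near the limit of detection with 19, 28 and 51 estimated reads in sham 1 to 3 and 49, 35 and 52 in nano-TiO2 1 to 3. These gave 0.898, 2.09 and 2.60 CPM in sham and 2.98, 2.19 and 2.15 CPM in nano-TiO2. Sham 1 was the lowest library and the other 5 lay close together. The log2 difference of 0.39 ± 0.43 (SE) did not pass (adjusted p = 0.520 in edgeR), and at this depth no difference of that size could be told from the spread. Trim71 had 4, 5 and 11 estimated reads in sham and 11, 17 and 10 in nano-TiO2 and did not pass the filter on low counts. In the reads of the bin table, where it was tested, its log2 difference was 0.60 (adjusted p = 0.408).

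Levels between genes were compared as TPM, a measure that divides reads by transcript length. In sham hearts the order was Mycn (18.8 ± 6.69), Igf2bp1 (9.98 ± 2.07), Igf2bp3 (7.56 ± 2.35), Igf2bp2 (4.19 ± 1.22), Hmga2 (1.33 ± 0.644), Lin28b (0.608 ± 0.232) and Trim71 (0.0350 TPM). In nano-TiO2 hearts it was Mycn (29.1 ± 18.6), Igf2bp3 (20.7 ± 6.12), Igf2bp1 (19.7 ± 12.3), Igf2bp2 (12.0 ± 4.27), Hmga2 (4.22 ± 3.05), Lin28b (1.17 ± 0.256) and Trim71 (0.110 TPM; SD over n = 3 throughout). Igf2bp1 and Igf2bp3 did not differ beyond their spread in either group. Mycn was above Igf2bp1 in every library. The ratio of Igf2bp1 to Mycn was 0.435, 0.870 and 0.430 in sham 1 to 3 (0.578 ± 0.253, SD, n = 3). In nano-TiO2 hearts it was 0.680 ± 0.0344 (SD, n = 3). On TPM the groups did not overlap, with nano-TiO2 higher, for Igf2bp2, Igf2bp3, Hmga2, Lin28b and Trim71. The same held for 47.2% of the genes whose mean TPM over all libraries reached 1, which Lin28b and Trim71 did not reach. The median gene was higher by 0.47 on log2(TPM + 1), since TPM as deposited carries no TMM scaling. The differences of Igf2bp2 (1.30), Igf2bp3 (1.34) and Hmga2 (1.05) were above that of the median gene, and that of Mycn (0.49) was close to it. That of Igf2bp1 (0.77 ± 0.34, SE) was also above it but did not pass (adjusted p = 0.0869 in limma). Hmga2 passed on this scale (adjusted p = 0.0265 in limma), but that test is against 0 and not against the shift of the median gene. It called 4246 of 11933 genes higher and 26 lower.

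Ratios between members within a library do not depend on library scaling, but they were not adjusted for length and GC. Hmga2 relative to Mycn was 0.0795, 0.0849 and 0.0482 in sham and 0.120, 0.153 and 0.151 in nano-TiO2 (ratios of TPM). The groups did not overlap, and the mean ratio was 0.0709 ± 0.0198 against 0.141 ± 0.0189 (SD, n = 3 each). Igf2bp2 relative to Igf2bp1 was likewise apart, at 0.418 ± 0.0662 against 0.673 ± 0.164. Igf2bp2 relative to Igf2bp3 was 0.570 ± 0.152 and 0.572 ± 0.0394 and overlapped, as did Igf2bp3 relative to Igf2bp1 and Igf2bp1 relative to Mycn. With 3 libraries per group an exact permutation test of any of these 5 ratios cannot go below 0.1 (two-sided), and no p is given. How often ratios of other gene pairs were apart was not counted. Single genes were apart in CPM for 45.7% of those tested. Adjustment for length and GC moved the log2 difference from 0.98 to 0.41 for Hmga2 and from -0.06 to 0.13 for Mycn. It moved that of Igf2bp2 from 0.82 to 0.52 and that of Igf2bp1 from 0.37 to -0.30.

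**Figure D2:**
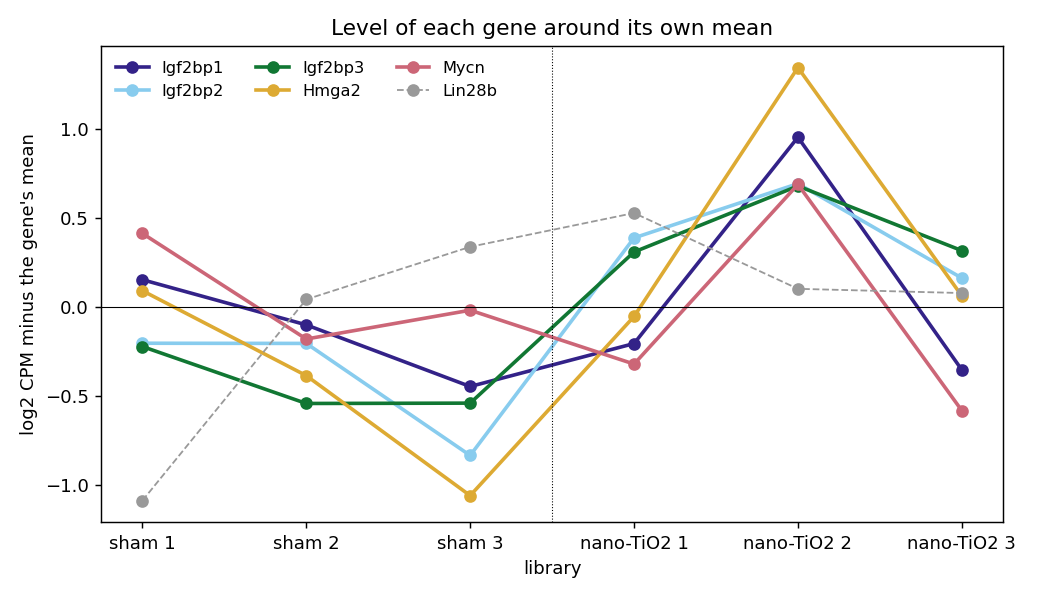
Log2 CPM of each tested member minus its own mean over the 6 libraries (y axis, log2 units) by library (x axis); lines join the values of 1 gene and do not stand for an order of the libraries. Igf2bp1, Igf2bp2, Igf2bp3, Hmga2 and Mycn peak in nano-TiO2 2, by 0.68 to 1.35 above their means, and Lin28b does not (0.10).

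The plot of centred levels by library shows how the members vary together. Igf2bp1, Igf2bp2, Igf2bp3, Hmga2 and Mycn, 5 of the 6 tested members, had their highest value of all 6 libraries in nano-TiO2 2, where 14.3% of all tested genes were highest. Above their own means they stood in that library by 0.95 for Igf2bp1, 0.69 for Igf2bp2, 0.68 for Igf2bp3, 1.35 for Hmga2 and 0.69 for Mycn on the log2 scale. The same 5 genes were highest in sham 1 within the sham group, though for Igf2bp2 sham 1 and sham 2 were level. Of all tested genes, 20.9% were highest in sham 1 within the sham group and in nano-TiO2 2 within the nano-TiO2 group. Nano-TiO2 2 had the lowest depth, the lowest haemoglobin share (5.64%) and the lowest cardiomyocyte marker sum of the 6 libraries, and the highest sum of 4 neural markers (12.7 CPM, against 3.23 to 5.58 CPM elsewhere, with Sox2 at 0 in all sham libraries and nano-TiO2 1). Tubb3 made up 8.94 CPM of that neural sum, and Stmn2 was at 2.00 CPM there, below sham 3 and nano-TiO2 1. The part of these in the members' levels was not tested. Lin28b did not follow the others: it was highest in nano-TiO2 1 and lowest in sham 1. With 19 to 52 estimated reads per library, its order of libraries and its distances from other genes are uncertain.

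Likeness was measured as the root mean square distance between centred log2 CPM over the 6 libraries, so that 0 means the same profile. Among the members, Igf2bp2 and Igf2bp3 were nearest (0.196), followed by Igf2bp1 and Mycn (0.256). Hmga2 lay at 0.365 from Igf2bp2 and 0.367 from Igf2bp1, and Lin28b at 0.619 to 0.950 from the others. Of 10076 candidate genes, those nearest to Igf2bp3 were Meis2 (0.0424) and Zfp827 (0.0653), and those nearest to Igf2bp2 were Chst11 (0.0935) and Chd7 (0.108). Rassf5 (0.0842) and Fn1 (0.110) were nearest to Igf2bp1, Evc (0.123) and Pknox2 (0.125) to Mycn, Fat4 (0.177) and Slit2 (0.194) to Hmga2, and Spata7 (0.130) and Ranbp2 (0.139) to Lin28b. These distances describe 6 libraries that differ in depth and tissue makeup, and carry no test.

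The authors' table of reads per bin of about 25 bases shows where along each messenger the reads lay. All 7 genes lie on the minus strand, at chr11:95957163-96005940 (Igf2bp1), chr16:22059009-22163299 (Igf2bp2), chr6:49085223-49214957 (Igf2bp3), chr10:45376620-45486395 (Lin28b), chr10:120361275-120476469 (Hmga2), chr12:12936093-12941914 (Mycn) and chr9:114507133-114564369 (Trim71) in GRCm38. Bins were read in genome order, so that the first bin is the 3′ end of each member; this order placed more reads on the main coding transcript than its reverse for 85.8% of the plus-strand and 78.6% of the minus-strand genes on which it was checked. The 3′ UTR held 95.3 to 96.3% of the reads of Hmga2, 64.0 to 72.7% of Igf2bp1, 57.0 to 69.5% of Igf2bp2, 34.3 to 43.9% of Mycn and 23.4 to 30.3% of Igf2bp3. For Lin28b, over all libraries, 43.7% of its 229 reads fell on the main coding transcript in genome order and 79.5% in the reverse order. The check presumes that most reads lie on that transcript, which cannot be presumed for Lin28b. The place of its reads is therefore not given. Salmon gave 33.4% of the Lin28b reads to that transcript and 38.1% and 28.5% to a pair of noncoding ones.

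**Figure D3:**
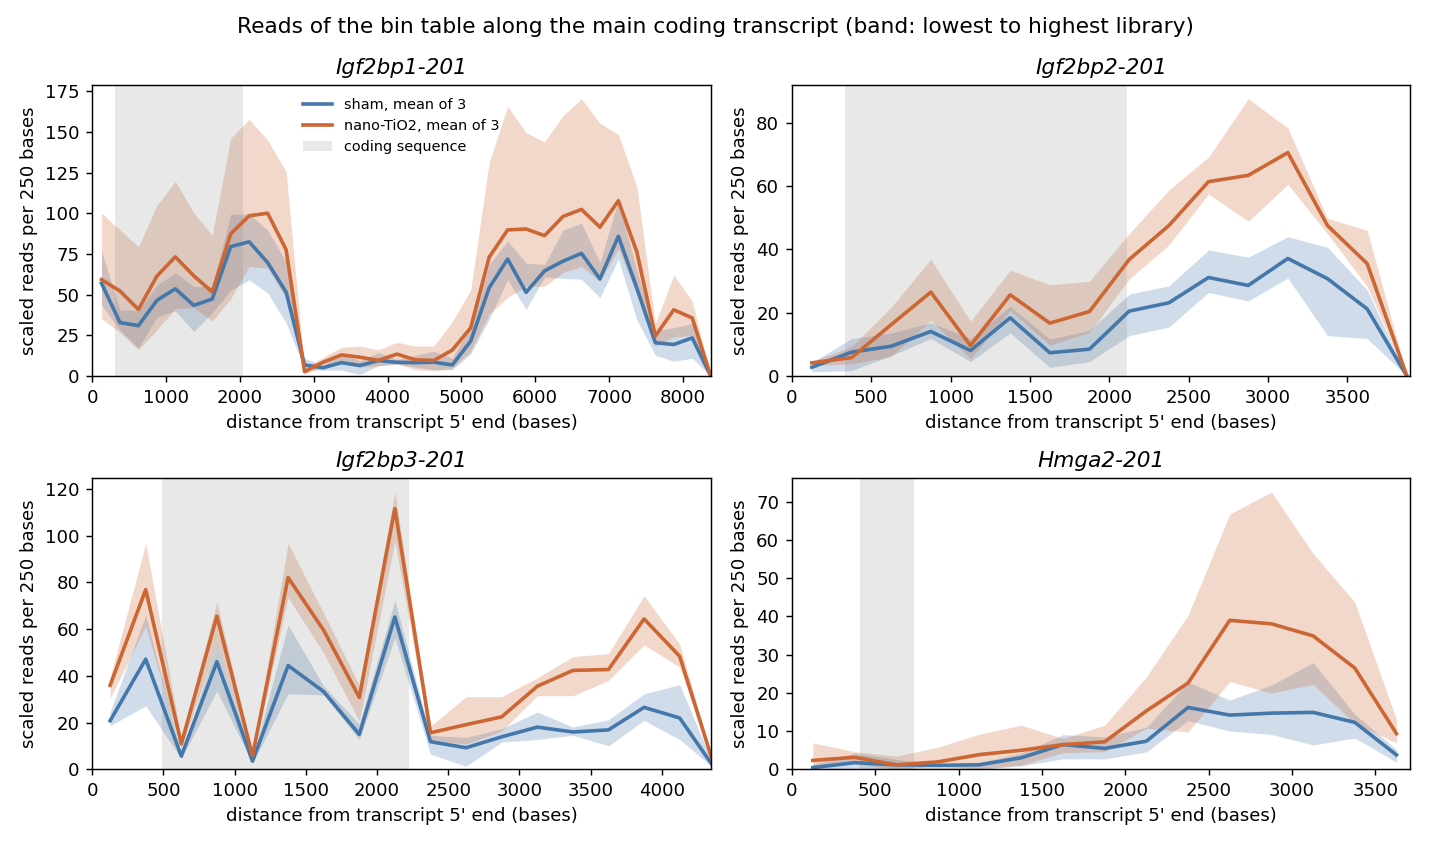
Reads of the bin table along the main coding transcript of Igf2bp1, Igf2bp2, Igf2bp3 and Hmga2 (y axis, reads per 250 bases in the authors' scaling; x axis, distance from the 5′ end in bases); lines are group means of 3 libraries, bands span the lowest to the highest library, and grey marks the coding sequence. Igf2bp1 has 2 blocks of reads with a stretch of low values between them inside its 3′ UTR, and the bands of Igf2bp3 are apart over much of its length.

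Igf2bp3 reads were higher in nano-TiO2 in every section of the messenger, and the groups did not overlap in any. The ratio of group means was 1.63 in the 5′ UTR, 1.74 in the coding region, 2.13 in the 3′ UTR and 1.81 in bins outside the main transcript. Part of that 3′ UTR cannot be assigned: 1529 exon bases of Igf2bp3 (chr6:49085223-49086751, GRCm38) are also exon of Malsu1 on the opposite strand, and the strand setting of the table is not given. Malsu1, a mitochondrial ribosome assembly gene, was at 44.7, 47.3 and 54.6 CPM in sham and 36.8, 38.0 and 43.6 CPM in nano-TiO2, a difference of -0.31 (adjusted p = 0.135 in edgeR). In the shared bins of the 3′ UTR the groups were apart, with a ratio of 2.26. In the other bins of the 3′ UTR, values of 38.1, 11.6 and 38.2 in sham and 39.1, 69.1 and 36.0 in nano-TiO2 overlapped. Over all bins of Igf2bp3 outside Malsu1 exons the values were 533, 406 and 441 in sham and 716, 954 and 737 in nano-TiO2, which did not overlap and had a ratio of 1.74.

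Igf2bp2 groups were apart in the 3′ UTR, at 184.6 ± 48.6 against 346 ± 41.3 scaled reads (SD, n = 3 each), but not in the coding region, at 75.9 ± 16.5 against 134 ± 53.0. The overlap in the coding region was that of sham 1 (88.88) with nano-TiO2 3 (88.86), which were level. The ratios of means were alike, 1.87 and 1.76. Salmon split the gene between its main coding transcript, with 61.1% of its reads, and a retained-intron transcript, with 37.3%. The retained-intron transcript had 206.7, 116.7 and 0 estimated reads in sham 1 to 3 and 88.1, 260.6 and 319.5 in nano-TiO2 1 to 3. The coding transcript had 209.1, 150.3 and 244.9 against 398.3, 327.3 and 295.6. In these unscaled reads the coding transcript was apart between the groups and the retained-intron one was not. Salmon's split varied among the sham libraries, with 206.7 retained-intron reads in sham 1 and 0 in sham 3. Bins outside the main transcript held 14.5% of the gene's bin reads in sham 1 and 13.7% in sham 3. A difference between the transcripts is therefore not read from this split. The other tested members with 1 dominant coding transcript were Igf2bp1 (98.7% of reads), Igf2bp3 (90.9%), Hmga2 (97.4%) and Mycn (99.6%).

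The 4 let-7 seed matches of Igf2bp1 lie 1715, 4136, 4730 and 5353 bases after its stop codon. The first falls in the stretch of low values, where its window held 9.51 scaled reads in sham and 9.59 in nano-TiO2 (means of 3 libraries). The other 3 fall in the distal block, with 64.6, 59.7 and 54.0 scaled reads in sham and 86.3, 91.5 and 76.3 in nano-TiO2. The single match of Igf2bp2 lay in a window with 30.7 and 47.5 scaled reads, and that of Igf2bp3 in one with 13.9 and 22.4. In Hmga2, the windows of the 4 matches held 1.02 to 16.2 scaled reads in sham and 1.92 to 26.5 in nano-TiO2, least at the match nearest the stop codon. That match lies inside an exon of another gene on the opposite strand (chr10:120364157-120364296), and the Igf2bp3 window reaches into the Malsu1 exon. Reads in these overlaps cannot be assigned to a strand.

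Promoters of 300 bases (RefSeq, GRCm38.p6, 250 before to 50 after the start site) were searched for CACGTG, the E-box that MYC-family proteins bind, which reads the same on both strands. Igf2bp3 had 2 copies and Lin28b 1, and Igf2bp2, Hmga2, Mycn and Trim71 had 0; Igf2bp1 was not among the promoters used here. The motif was present in 2349 of 32851 promoters (7.15%), and more than 1 copy in 195 (0.594%). The copies are shown in capitals with 10 bases on each side because Igf2bp3 is 1 of the 2 members called higher.
Igf2bp3, upstream copy: tgggattcctCACGTGagacgttgat
Igf2bp3, downstream copy: gtagtttgaaCACGTGgctcattcaa
Lin28b: ttgacagagtCACGTGtgctcagggg

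On the minus strand these windows are chr6:49214962-49214987, chr6:49214934-49214959 and chr10:45470235-45470260, and the copies begin at -23, 5 and -49 relative to the RefSeq start site. No binding was measured.

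**Figure D4:**
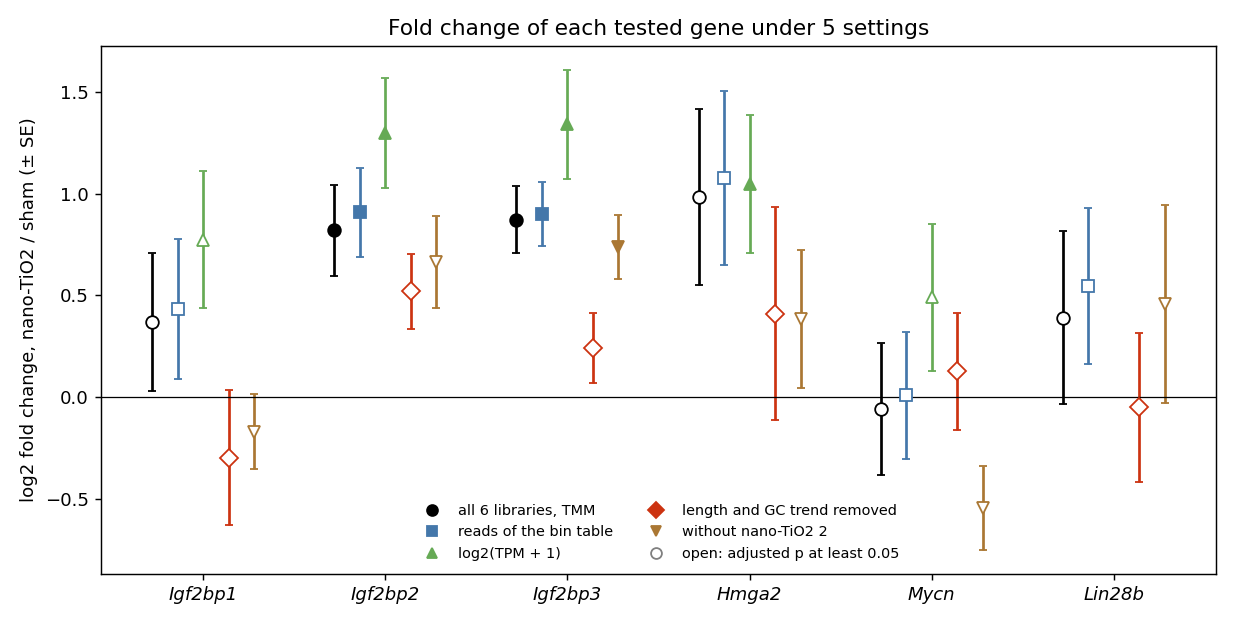
Log2 fold change of each tested member with its SE (y axis, nano-TiO2 against sham) under 5 settings: all 6 libraries with TMM, the reads of the bin table, log2(TPM + 1), the length and GC trend removed, and without nano-TiO2 2; filled points passed an adjusted p under 0.05, and Lin28b has no value on log2(TPM + 1). Igf2bp2 and Igf2bp3 pass with all libraries (0.82 and 0.87), and all members have open points after adjustment for length and GC.

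The members' differences were compared with those of genes of like length, since long transcripts were higher in the nano-TiO2 libraries as a class. Genes were ranked by length into 5 equal classes. The median difference was 0.68 in the class of Igf2bp1 (the longest), 0.26 in that of Igf2bp2, Igf2bp3, Lin28b and Hmga2, and 0.04 in that of Mycn. Igf2bp2, Igf2bp3 and Hmga2 were above the median of their class, Igf2bp1 below it, and Lin28b (0.39) close to it. In classes by GC content the medians were 0.10 for Igf2bp1 and Igf2bp2, 0.48 for Igf2bp3 and Hmga2, 0.50 for Lin28b and -0.29 for Mycn. Lin28b was below the median of its GC class and the other tested members were above theirs. After adjustment for length and GC, 58 genes were called higher (0.416%) and 174 lower (1.25%), and 0 of the 6 members were called by edgeR, 1 of them (Igf2bp2) being higher with p under 0.05 before adjustment. The log2 differences were then 0.52 for Igf2bp2, 0.41 for Hmga2, 0.24 for Igf2bp3, 0.13 for Mycn, -0.05 for Lin28b and -0.30 for Igf2bp1. The reads of the bin table gave 0.91 for Igf2bp2 (adjusted p = 0.0181) and 0.90 for Igf2bp3 (adjusted p = 0.0063), 2 of 7 members beside 15.4% of 18850 genes called higher. Whether the relation to length and GC arose in the tissue or in library making was not tested.

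Genes around the members were counted in 7 lists, of which 80 genes passed the filter (each gene counted once), 21 of them called higher and 5 lower; among all tested genes 15.5% were higher and 12.8% lower. Of 24 other let-7 target genes tested, 8 were higher, 2 lower and 14 did not pass, with a median of 0.35 beside -0.01 for all genes. Cdk6, a cell cycle kinase, rose from 13.5 ± 0.964 to 39.7 ± 5.56 CPM (1.55, adjusted p = 0.0063 in edgeR). Insr, the insulin receptor, rose from 9.82 ± 1.71 to 27.7 ± 7.41 CPM (1.49, adjusted p = 0.00743). Hmga1, the paralog of Hmga2, fell by 0.67 (adjusted p = 0.0411), as did Cdc34, a ubiquitin-conjugating enzyme, by 0.70 (adjusted p = 0.0089).

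Of 12 tested genes of let-7 processing, 5 were higher, 1 lower and 6 did not pass, with a median of 0.43. Dicer1, which cuts microRNA precursors and is itself a let-7 target, rose from 9.96 ± 2.24 to 25.3 ± 0.748 CPM (1.34, adjusted p = 0.00672 in edgeR). Ago2, the effector that holds the mature microRNA, rose by 0.93, and Tut7 and Tut4, which add uridines to let-7 precursors, by 1.22 and 0.86. Dgcr8 of the nuclear Microprocessor rose by 0.62, and Tarbp2, the partner of Dicer1, fell by 0.62. Of 7 proteins that bind with the IGF2BPs, Hnrnpu (1.11), Dhx9 (0.62) and Syncrip (0.60) were higher and 4 did not pass, with a median of 0.30. In the reads of the bin table, Hnrnpu differed by 0.37 and was not called (adjusted p = 0.226 in edgeR).

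Among target messengers of the IGF2BPs, Cd44, a cell adhesion receptor, rose from 24.5 ± 3.82 to 38.2 ± 3.50 CPM (0.64, adjusted p = 0.0245 in edgeR). Igf2, the messenger the family is named after, was at 1609 ± 339.8 CPM in sham and 1622 ± 95.3 CPM in nano-TiO2, and Actb differed by -0.42 (adjusted p = 0.169 in edgeR). Of 11 genes of the MYC network, Mga (1.19), a MAX partner, was higher, Mxd3 (-0.52) was lower and 9, Myc, Max and Mlx (-0.32) among them, did not pass, with a median of -0.09.

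Of 10 tested genes known to fall as the heart matures, the imprinted genes Peg3 (1.44) and Plagl1 (1.16) and the topoisomerase gene Top2a (0.55) were higher, and Tnni1, the slow skeletal troponin I of the fetal heart, was lower (-0.67, adjusted p = 0.0186 in edgeR). The list's median was 0.54. Of 12 genes known to rise as the heart matures, 0 passed in edgeR in either direction and 0 had p under 0.05 before adjustment, while DESeq2 called 1 lower and limma-voom 0; the median was -0.49. Cox7a1, Tnni3 and Cox6a2, the 3 with the smallest p, differed by -0.71, -0.49 and -0.49 (adjusted p from 0.123 to 0.18). The summed cardiomyocyte markers were also lower in nano-TiO2, through the abundant Actc1 and Myh7, while Ryr2 was at 44.7 to 61.3 CPM in sham and 75.3 to 150.7 CPM in nano-TiO2 and Tnnt2 and Nppa overlapped; their part in these values was not tested.

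**Figure D5:**
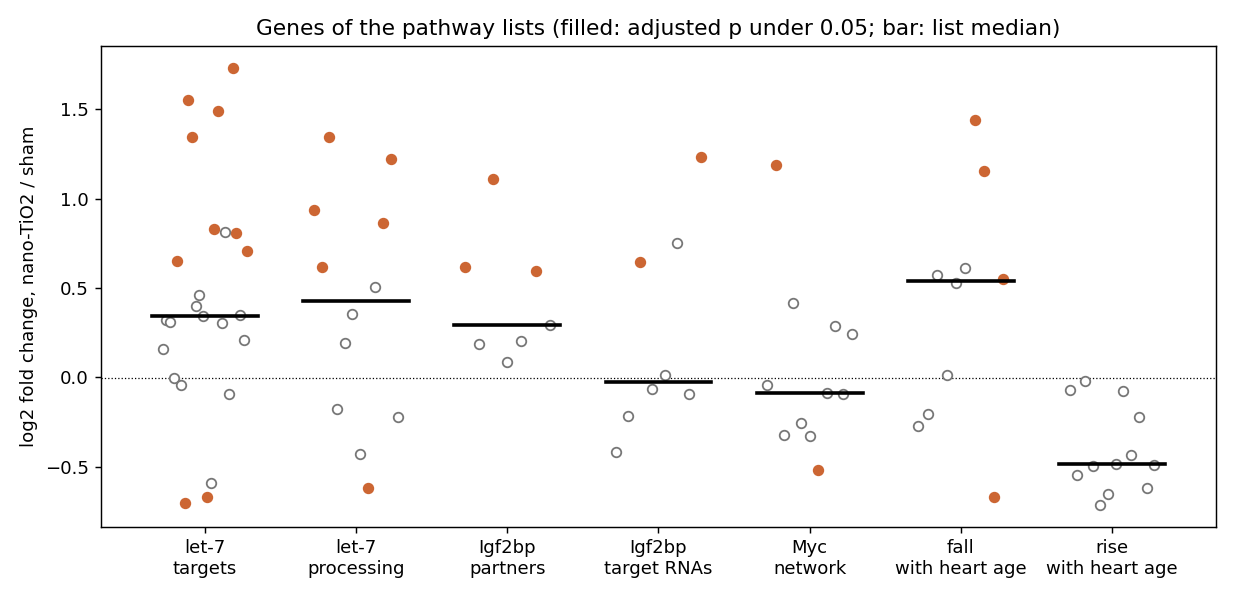
Log2 fold change (y axis, nano-TiO2 against sham) of every tested gene in the 7 pathway lists; filled points passed an adjusted p under 0.05 and the bar is the list's median. Medians run from -0.49 (genes that rise with heart age) to 0.54 (genes that fall with heart age), without adjustment for length and GC. With that adjustment the medians of these lists were 0.09 and 0.19.

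Without nano-TiO2 2 the let-7 targets had 7 higher and 2 lower, let-7 processing 4 and 1, IGF2BP partners 3 and 0, the MYC network 1 and 0, the genes that fall with heart age 5 and 1, and those that rise 0 and 0. Of all 14296 genes in that fit, 2190 were called higher (15.3%) and 2083 lower. After adjustment for length and GC, edgeR called 0 of the 80 genes; before correction for multiple tests, 5 were higher and 4 lower with p under 0.05. The list medians then lay between -0.06 and 0.19, beside -0.02 for all genes. That of the genes that rise with heart age changed sign, from -0.49 to 0.09. That of the genes that fall with heart age moved from 0.54 to 0.19.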

How the data were processed

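Transcript levels were measured in pooled fetal hearts, with 3 libraries per group, and each library's group and number came from its title. The members and gene lists were chosen with earlier results of these data known.

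The authors deposited Salmon's estimated count of reads for each transcript, unscaled, per the file headers. The deposited TPM column is Salmon's own and uses effective length, per the file headers. A deposited table of the whole series holds the signal in bins along each gene, which the authors had divided by a size factor for each library, as its values show: 100% of its values gave whole reads within 0.001. HISAT2 2.2.1, Salmon 1.5.2, DESeq2 1.34.0 and GRCm39 are named in the submitters' processing notes, with no role. Which tool counted the bins, and with which strand setting, is not stated. Gene names, exons and UTRs came from GENCODE M21 and microRNAs and promoters from RefSeq, both on GRCm38, and all coordinates are on that build. Of 116747 transcripts, 115636 matched by ID.

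Estimated reads were summed per gene, rounded, and tested with edgeR 4.0.16 in R 4.3.3 (quasi-likelihood, robust, group as the only term, TMM, filterByExpr, Benjamini-Hochberg over 13928 genes; biological coefficient of variation 23.9%). CPM uses TMM factors, and log2 CPM for centred levels a prior count of 2. The depth of 12881945 to 22720009 reads limits Lin28b and Trim71 most. The rule for names took all members, up to 3 genes of each list with the smallest p, any gene behind a count of 5 or fewer, and the 2 genes nearest each member; Igf2, Myc, Max and Malsu1 were named after their values were seen. A gene of the IGF2BP target list, and that list's counts, are not reported here. No library matched another of its group within sampling noise. Tests were checked on simulated counts.

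Alternatives were other scaling factors (RLE, upper quartile, none beyond the library total), DESeq2 1.42.0, limma-voom (limma 3.58.1), other count filters, counts rebuilt from TPM and length, limma on log2(TPM) with pseudocounts of 1 and 0.1, a replicate block, an adjustment of each library for length and GC by a smooth curve (mgcv 1.9.3), the recovered whole reads of the bin table (2900 of 18850 genes higher and 2112 lower), gene subsets, and libraries left out. Leaving out nano-TiO2 2 together with the length and GC adjustment was added after seeing the data.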

Additional observations from a re-analysis of the deposited data

How the results depend on the processing

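Of 6 tested members, 2 were called higher in the test as reported. The count was 0 after adjustment for length and GC, 0 with the replicate block and that adjustment, 0 without sham 2 and nano-TiO2 3 together, and 0 without nano-TiO2 2 and with the adjustment, where 1 (Igf2bp1) was called lower; before correction for multiple tests these 4 fits had 1, 1, 2 and 0 higher with p under 0.05. Leaving out 1 library gave 1 to 2. Correlations of group-centred levels were -0.39, 0.0218 and -0.0812 between libraries of the same number. Between libraries of different numbers they ran from -0.415 to 0.481. With 3 libraries per group these values cannot tell whether the numbers mark a pairing, which the labels do not state. The replicate block left 2 members higher and called 1262 genes higher and 796 lower. Against 2153 genes higher and 1780 lower, the counts were 4269 and 50 with library totals only (median gene 0.41), 1389 and 1038 with length-scaled TPM counts, 4246 and 26 on log2(TPM + 1), 4071 and 18 on log2(TPM + 0.1), 58 and 174 after the adjustment, 10 and 38 with the block as well, 292 and 528 with the adjustment and without nano-TiO2 2, and 0 and 0 without sham 2 and nano-TiO2 3 (2239 and 1111 with p under 0.05 before correction in edgeR, the only tool run there). Leaving out 1 library gave 864 to 2190 higher (fewest without nano-TiO2 1) and 366 to 2083 lower (fewest without sham 2). The sign of Igf2bp1 turned to -0.30 after the adjustment, -0.41 with the block as well, and -0.79 with the adjustment and without nano-TiO2 2; leaving out 1 library gave -0.17 (nano-TiO2 2) to 0.60. Lin28b turned to -0.050 after the adjustment and -0.083 when nano-TiO2 2 was also left out, and Hmga2 to -0.26 in the latter. Mycn turned to 0.37 with library totals, 0.49 and 0.51 on the TPM scales, 0.13 after the adjustment, 0.063 with the block as well, 0.0083 in bins and 0.10 without sham 2 and nano-TiO2 3; leaving out 1 library gave -0.55 to 0.19, above 0 without sham 1, nano-TiO2 1 or nano-TiO2 3. The cause of these changes was not tested.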
